A study of Mus musculus with 8 samples.

Results

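The genes described here are 40 genes of DNA repair, chosen by name and sorted by the route of repair to which each belongs, in the livers of wild-type (WT) mice and of mice lacking SIRT7 (SIRT7 KO). SIRT7 is a nuclear histone deacetylase of the sirtuin family. A probe set annotated to that gene alone was found for 38 of the 40, through 64 of the 22626 probe sets tested, and each gene is described by its brightest probe set, which is the one with the highest mean over all arrays. Lig4, the ligase of end joining, and Neil1, a glycosylase of oxidised bases, had no such probe set and were left out of every count. Total RNA from the livers of WT and SIRT7 KO mice was labelled and read on 8 GeneChip arrays, 4 per genotype. The 8 values of each probe set are log2 expression values. The arrays of a genotype are numbered as in the labels. The labels and the methods for the arrays give only tissue and genotype, and do not say whether each array stands for a separate mouse. The paper places SIRT7 KO mice on a chow diet and speaks of WT littermates, without stating either for the arrays, and names no tissue-restricted driver of the deletion. The p-values therefore measure the spread between these 8 samples.

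DNA damage is handled by several routes. In base excision repair a glycosylase removes a damaged base, an endonuclease opens the strand, and a polymerase and a ligase fill and seal the gap, with PARP proteins marking the nick. Nucleotide excision repair cuts out a stretch of strand around a bulky lesion, mismatch repair corrects errors of replication, and double-strand breaks are either joined end to end or copied from the sister chromatid by homologous recombination. Hepatocytes seldom divide in the adult liver and meet many reactive metabolites, and in cells that do not divide double-strand breaks are mostly mended by end joining. SIRT7 is known to be recruited to double-strand breaks in a manner that depends on PARP activity, and to favour the binding of the end-joining factor 53BP1 there, so that the abundance of the repair transcripts in its absence is a question of its own.

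Sirt7 was between 8.57 and 8.98 on the WT arrays and between 4.40 and 4.90 on the SIRT7 KO arrays, a difference of -4.21 (limma adjusted p = 9.2e-07) in the direction of the labels. Of 9 measured hepatocyte markers, all lay at 11.92 or above on each array, and albumin (Alb) lay between 15.19 and 15.23. Taken singly, each of the 9 overlapped between the genotypes, and 0 had a limma adjusted p under 0.15. Their differences ran from -0.27 for Hnf4a to 0.10 for Fabp1, with 8 negative and 1 positive. The mean of these 9 markers was between 14.30 and 14.38 in WT and between 14.23 and 14.26 in SIRT7 KO livers, without overlap. RNA integrity was read from the GAPDH controls as the 3' value minus the 5' value, which was between 0.163 and 0.289 on the WT arrays and between -0.0156 and 0.160 on the SIRT7 KO arrays, also without overlap (exact two-sided permutation p = 0.0286, which no arrangement of 4 against 4 can undercut). The beta-actin controls overlapped, at 1.582 to 1.645 in WT and 1.29 to 1.631 in SIRT7 KO livers (exact two-sided permutation p = 0.257). The part of these measures in the results was not tested.

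Most repair transcripts differed little between the genotypes. The mismatch repair gene Msh3 fell in SIRT7 KO livers, and no other member passed the test in either direction (limma, Benjamini-Hochberg adjusted p under 0.15 over all probe sets, as in the methods of the study). A single call among 38 members is a share of 2.63%, against 4.65% of all 12393 genes that were called in either direction and 2.48% that were called lower, which is a share near that of all genes. The 4 SIRT7 KO values lay clear of the 4 WT values for 2 members, Msh3 and Ddb2, or 5.26%, against 9.8% of all genes. Those same 2 members were the only ones with an unadjusted p under 0.05, again 5.26%, against 15.6% of all genes. The differences ran from -0.32 to 0.21 on the log2 scale with a median of -0.023, and 24 of the 38 were negative. Over all genes the median was -0.0031 and 50.7% were negative, and over the 6923 genes above the median brightness the median was -0.032 and 57.8% were negative. Only 9 members lay below the median brightness. Among the 6923 brighter genes 6.79% were called, 4.03% were called lower, 13.9% did not overlap and 21.2% had an unadjusted p under 0.05.

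The arrays were precise enough to bound these differences. The 95% interval of the difference lay within 0.5 log2 units of 0, or within 1.41-fold, for 35 of the 38 members. The exceptions were Msh3, whose interval reached down to -0.53, Ddb2, whose interval reached down to -0.501, and Fen1, whose interval ran from -0.34 to 0.74. A member with the median standard error of the list would have been called at a difference of about 0.33, or 1.25-fold, and the size needed ranged from 0.22 for Lig3 to 0.83 for Fen1. Estimates smaller than these could not be called with 4 arrays per genotype, but these sizes are not limits of detection for a true difference. In bulk liver RNA, moreover, fewer cells of a type and less RNA per cell cannot be told apart.

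**Figure D1:**
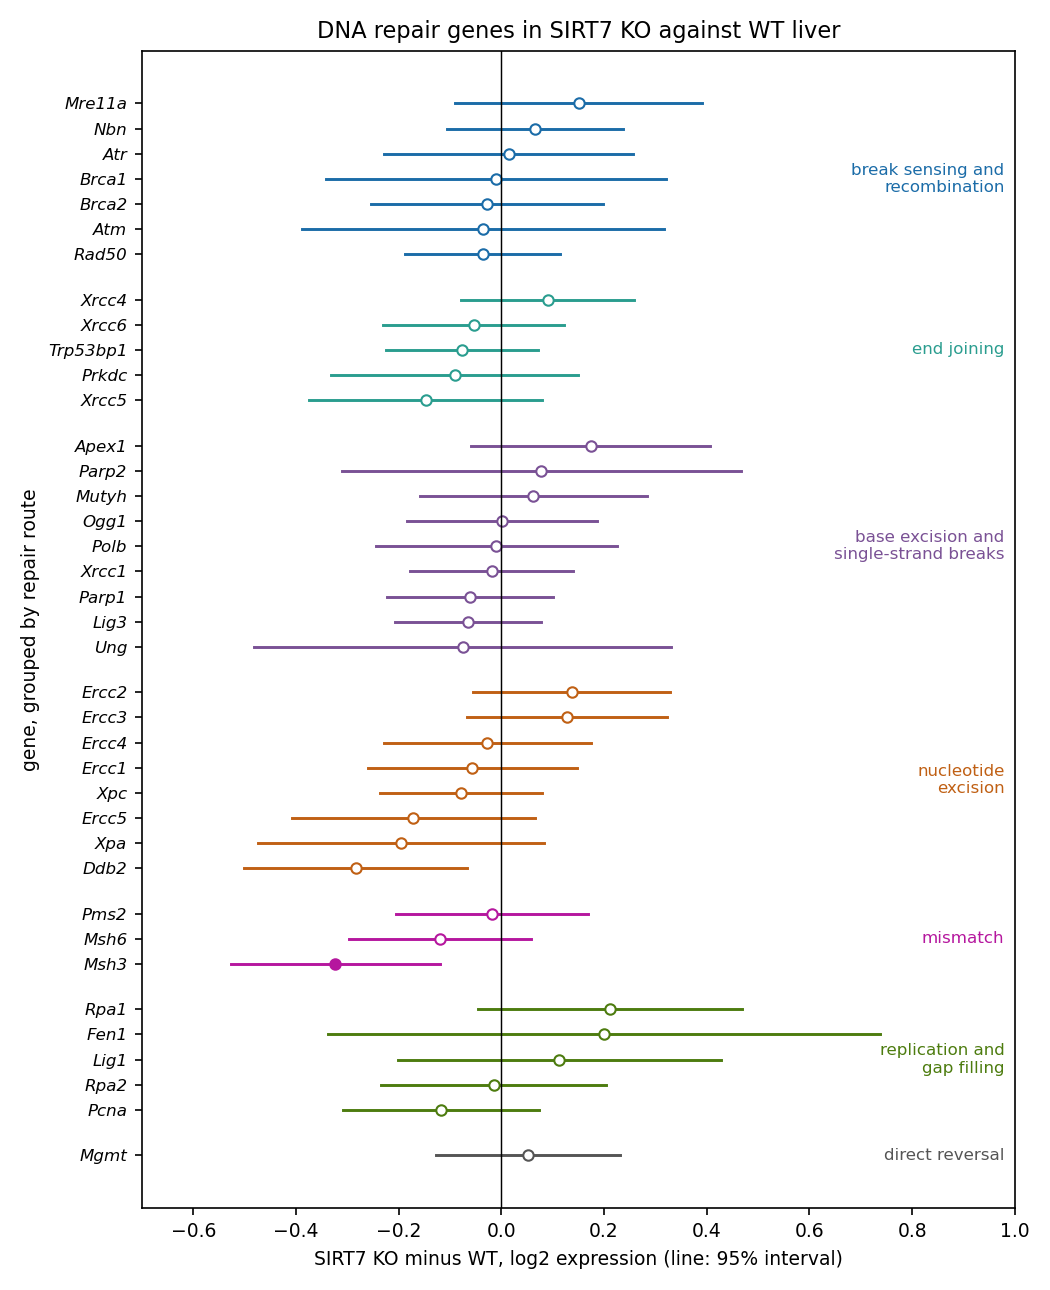
SIRT7 KO minus WT, in log2 units (horizontal axis), for 38 DNA repair genes grouped by route (vertical axis); circles are model estimates over 4 arrays per genotype, lines are 95% intervals, and the filled circle marks the call at an adjusted p under 0.15. Msh3 at -0.32 is the single filled circle, and the interval of Fen1 is the widest.

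Mismatch repair comes first, as the route with the call. MSH3 and MSH6 take part in the recognition of replication errors, and PMS2 acts in the steps that follow. Msh3 stood at 7.67, 7.72, 7.36 and 7.65 on WT arrays 1 to 4 and at 7.33, 7.18, 7.23 and 7.36 on SIRT7 KO arrays 1 to 4. All 4 SIRT7 KO values were below all 4 WT values, although WT array 3 (7.364) and SIRT7 KO array 4 (7.361) almost met. In WT livers the mean was 7.60 ± 0.16 (SD, n = 4), against 7.28 ± 0.083 (SD, n = 4) without SIRT7, a fall of 1.25-fold (log2 difference -0.32 ± 0.090 SE, limma adjusted p = 0.14). The call was narrow, for it was kept in 1 of 8 fits without a single array, that without WT array 3 (adjusted p = 0.0704), and the adjusted p otherwise ran up to 0.296, reached without WT array 1. The 2 further probe sets of Msh3 had the same sign, with differences of -0.097 and -0.048, but their mean levels of 4.43 and 3.46 lay below 4.56, the lower quartile of all probe set means, where a level is close to background.

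Msh6 was between 7.67 and 8.001 on the WT arrays and between 7.65 and 7.72 on the SIRT7 KO arrays, with a difference of -0.12 ± 0.079 (SE) that did not pass (adjusted p = 0.545). Pms2 had a difference of -0.018 ± 0.083 (SE). The 2 genotypes overlapped in both genes, and all 3 measured genes of this route had a negative sign. The sequence about the transcription start site of Msh3, the member that was called, is shown 5' to 3' on the strand of the gene from 250 bases before the start to 50 after it (RefSeq, build GRCm38.p6, minus strand, chr13:92354954-92355253). Capitals mark every match, on either strand, to TTTCCCGC or TTTGGCGC of the E2F factors, CCAAT of NF-Y, GGGCGG of the SP factors, the E-box CACGTG bound by MYC and TGACGTCA of the CREB and ATF factors.
Msh3: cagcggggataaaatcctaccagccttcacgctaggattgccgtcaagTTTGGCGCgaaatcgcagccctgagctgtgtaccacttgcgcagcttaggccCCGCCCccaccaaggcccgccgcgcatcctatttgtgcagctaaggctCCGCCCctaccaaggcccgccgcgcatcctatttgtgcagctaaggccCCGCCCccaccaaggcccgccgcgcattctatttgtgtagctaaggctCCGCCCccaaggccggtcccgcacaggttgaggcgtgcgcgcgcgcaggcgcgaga
The window held 1 match to the E2F letters and 4 to GGGCGG. The E2F letters were found in 1.56% of the 32851 windows of all genes, and in at least 1 window of 4 of the 31 measured members with a window in the table, namely Msh3, Msh6, Brca2 and Xrcc6. GGGCGG was found in 35.7% of all windows and in those of 22 of the 31 members, CCAAT in 37.4% and 18, CACGTG in 7.15% and 8, and TGACGTCA in 1.79% and 1 (Brca2). The percentages count windows, whereas the member figures count genes, several of which have more than 1 window, so they are not like measures. Of the 4 members with the E2F letters, only Msh3 was called, and a match describes the letters of the window and no more.

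In nucleotide excision repair, DDB2 and XPC find the lesion, XPA verifies it, the helicases ERCC2 and ERCC3 open the helix as parts of TFIIH, and ERCC5 and the ERCC1-ERCC4 pair cut the strand on either side. None of the 8 members was called. Ddb2 stood at 6.71, 6.70, 6.76 and 6.58 on WT arrays 1 to 4 and at 6.56, 6.54, 6.32 and 6.18 on SIRT7 KO arrays 1 to 4. The genotypes did not overlap, though WT array 4 (6.578) and SIRT7 KO array 1 (6.562) lay close. The difference was -0.28 ± 0.097 (SE, adjusted p = 0.215), and it stayed between -0.34 and -0.21 in the fits without a single array, of which 0 of 8 called it. The further probe set of Ddb2 gave -0.18 (adjusted p = 0.446) with overlapping groups. Xpa stood at 8.11, 8.11, 7.90 and 7.73 in WT and at 7.98, 7.71, 7.87 and 7.51 in SIRT7 KO livers, with a wide overlap and a difference of -0.20 ± 0.12 (SE, adjusted p = 0.526). Further probe sets of Xpa gave 0.042 and -0.135, at mean levels of 4.03 and 3.62, below the lower quartile of all probe set means. Ercc5 (-0.17 ± 0.11 SE) and Xpc (-0.078 ± 0.070 SE) had the same sign, and Ercc1 (-0.057) and Ercc4 (-0.027) lay close to 0. The helicase genes Ercc2 (0.14 ± 0.085 SE) and Ercc3 (0.13 ± 0.086 SE) had the opposite sign without passing (adjusted p = 0.518 and 0.556). Thus 6 of the 8 differences were negative, with a median of -0.067.

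Ddb2, Xpc and Pcna are known targets of p53 in human cells, and the classical p53 targets on the arrays were read beside them. Of 11 such genes measured, 2 rose and 0 fell: the cell cycle inhibitor Cdkn1a (0.77 ± 0.21 SE, adjusted p = 0.133) and the antiproliferative gene Btg2 (1.07 ± 0.15 SE, adjusted p = 0.027). That is 18.2% of a short list, against 4.65% of all genes called in either direction, and the shares were not compared by a test. The median difference over the 11 was 0.063. The mean level of the 11 did not overlap, at 7.69 to 7.94 in WT and 7.995 to 8.03 in SIRT7 KO livers, but that of the 9 without Cdkn1a and Btg2 did, at 7.80 to 8.04 and 7.94 to 8.04. The 3 repair genes had negative differences, and none of them was called.

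**Figure D2:**
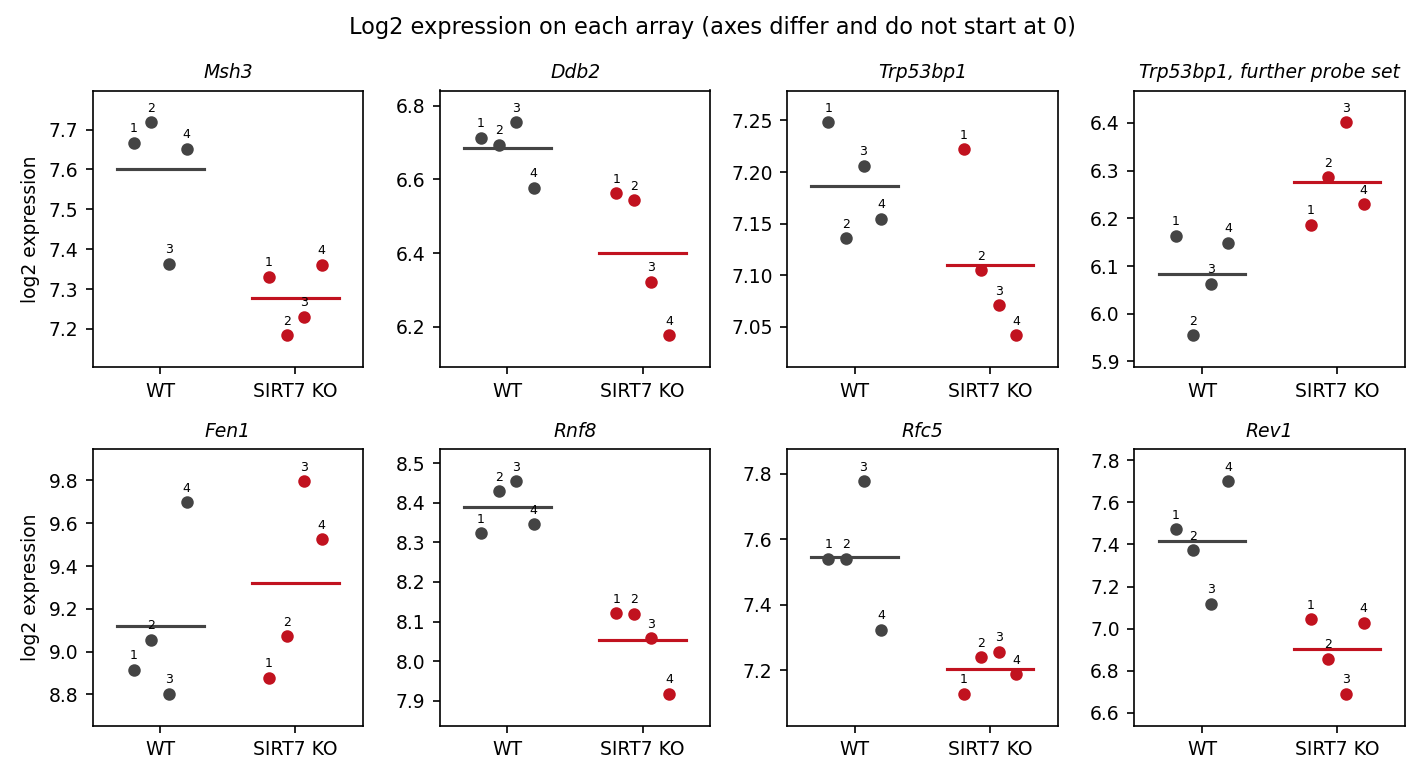
Log2 expression (vertical axis of each panel, scaled to its own values) on the 4 WT (grey) and 4 SIRT7 KO (red) arrays, with array numbers above the points and lines at the group means. Msh3, Ddb2, Rnf8, Rfc5 and Rev1 lie lower on all 4 SIRT7 KO arrays, the brightest and the further probe set of Trp53bp1 have opposite signs, and Fen1 splits both genotypes.

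End joining, the route to which SIRT7 has been tied, was measured through 5 genes, and none was called. Trp53bp1 encodes 53BP1, which shields broken ends from resection. It stood at 7.25, 7.14, 7.21 and 7.15 in WT and at 7.22, 7.11, 7.07 and 7.04 in SIRT7 KO livers, with 1 SIRT7 KO array among the WT values. The difference was -0.076 ± 0.066 (SE, adjusted p = 0.653), and its 95% interval from -0.22 to 0.072 bounds any change in that probe set at about 0.2 log2 units. Its further probe set had the opposite sign, between 5.96 and 6.16 in WT and between 6.19 and 6.40 in SIRT7 KO livers without overlap (0.19 ± 0.076 SE, adjusted p = 0.276), so the direction of Trp53bp1 is uncertain, and the mean of both probe sets gave 0.058. The subunits of the Ku ring, which threads onto a broken end, were Xrcc5 (Ku80) and Xrcc6 (Ku70). Xrcc5 stood at 8.29, 8.36, 8.31 and 7.99 in WT and at 8.27, 8.09, 7.98 and 8.01 in SIRT7 KO livers. On WT array 4 it lay among the SIRT7 KO values, and the difference of -0.15 ± 0.10 (SE) did not pass (adjusted p = 0.561). Xrcc6 stood at 7.66, 7.62, 7.85 and 7.79 in WT and at 7.65, 7.57, 7.79 and 7.69 in SIRT7 KO livers, a difference of -0.054 ± 0.078 (SE). Prkdc, the DNA-dependent kinase that Ku recruits, stood at 6.21, 6.347, 6.58 and 6.39 in WT and at 6.39, 6.03, 6.39 and 6.352 in SIRT7 KO livers. Without SIRT7 KO array 2, which was lowest, its difference of -0.091 ± 0.11 (SE) went to -0.0044. Xrcc4, the scaffold of the final ligation, had a difference of 0.090 ± 0.075 (SE) and was the only positive member of the route.

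None of the 7 sensors of double-strand breaks and genes of homologous recombination was called. The kinases Atm and Atr, which signal breaks and stalled forks, had differences of -0.036 ± 0.16 (SE) and 0.014 ± 0.11 (SE). Of the MRN complex, which tethers and trims the ends, Rad50 had -0.036 ± 0.067 (SE), Nbn 0.065 ± 0.076 (SE) and Mre11a 0.15 ± 0.11 (SE). Brca1 and Brca2, which load the recombinase, had -0.011 ± 0.15 (SE) and -0.028 ± 0.10 (SE). The adjusted p was at least 0.577 in all 7, their median was -0.011, and the widest 95% bounds of the route were -0.39 and 0.39. Brca1 was dim, with a mean of 4.94, and its 3 further probe sets (3.44 to 4.30) lay below the lower quartile, so a change of Brca1 could be hidden by background.

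Of the 9 measured genes of base excision and single-strand break repair, none was called. The glycosylases Ogg1 and Mutyh, which guard against oxidised guanine, had differences of 0.0019 ± 0.082 (SE) and 0.062 ± 0.098 (SE), and Ung, which removes uracil, had -0.075 ± 0.18 (SE). Apex1, the endonuclease that opens the abasic site, was among the 3 highest members. It stood at 9.47, 9.57, 9.83 and 9.60 in WT and at 9.60, 9.98, 9.75 and 9.84 in SIRT7 KO livers, a difference of 0.17 ± 0.10 (SE, adjusted p = 0.491), and its other probe sets gave 0.17 and 0.13. The 3 probe sets thus shared a sign, while the groups overlapped. Parp1, the main sensor of nicks, stood at 8.34, 8.26, 8.34 and 8.14 in WT and at 8.24, 8.28, 8.19 and 8.12 in SIRT7 KO livers. The difference of -0.061 ± 0.072 (SE, adjusted p = 0.761) had a 95% interval from -0.22 to 0.10, and the further probe sets gave 0.045 and 0.040, so no direction can be given for Parp1. Parp2 had 0.078 ± 0.17 (SE), with WT array 4 at 7.27 and all others between 7.73 and 8.16. The repair polymerase Polb (-0.010), the scaffold Xrcc1 (-0.019) and its ligase Lig3 (-0.065) completed the route, whose median was -0.010. Further probe sets of Lig3 gave 0.034, 0.036, 0.13 and -0.17, and those of Polb 0.033 and 0.098, so the signs of Lig3 and Polb are uncertain.

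The proteins shared between replication and the gap-filling steps of repair showed the largest scatter. Rpa1 and Rpa2 encode subunits of the complex that coats single-stranded DNA, Pcna encodes the sliding clamp, Fen1 the flap endonuclease and Lig1 the ligase of replication. Rpa1 stood at 9.87, 9.74, 10.135 and 9.55 in WT and at 10.003, 10.08, 10.07 and 9.99 in SIRT7 KO livers. The SIRT7 KO arrays were tight (SD 0.046, n = 4), the WT arrays were wider (SD 0.25, n = 4), and WT array 3 lay above all SIRT7 KO arrays. The difference of 0.21 ± 0.11 (SE, adjusted p = 0.442), the highest of all members, did not pass. Without WT array 3 the difference was 0.32 and did not pass either (adjusted p = 0.172). The other probe set of Rpa1 gave 0.14. Fen1 stood at 8.92, 9.06, 8.80 and 9.70 in WT and at 8.88, 9.07, 9.80 and 9.53 in SIRT7 KO livers. WT array 4 and SIRT7 KO arrays 3 and 4 were therefore high and the other 5 arrays low, across the genotypes, and the difference of 0.20 ± 0.24 (SE, adjusted p = 0.763) was smaller than this spread. The further probe set of Fen1 did not show that split, for it lay between 5.48 and 5.94 on all 8 arrays, with WT array 4 the lowest. Lig1 had 0.11 ± 0.14 (SE), Rpa2 -0.015 ± 0.097 (SE) and Pcna -0.12 ± 0.085 (SE). The further probe set of Rpa2 had the opposite sign (0.24 ± 0.16 SE, adjusted p = 0.553), so no direction can be given for Rpa2. Mgmt, which strips alkyl groups directly from guanine, had 0.052 ± 0.080 (SE).

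Within a genotype, repair genes varied about as much as other genes. The pooled SD of the members was between 0.058 and 0.41 with a median of 0.13, and the median over all genes was 0.13. In 27 of the 38 members this SD was larger than the difference between the genotypes. The widest were Fen1 (0.41), Ung (0.30), Parp2 (0.29) and Atm (0.26). WT array 4 was the array farthest from its group mean in 10 members, among them Fen1, Parp2, Atm, Lig1 and Mre11a, and SIRT7 KO array 4 in 7. Fen1 and Atm were high on WT array 4, whereas Parp2, Lig1 and Mre11a were low on it, so this array did not shift the list one way: the mean of all members was between 7.31 and 7.36 on the WT arrays and between 7.31 and 7.32 on the SIRT7 KO arrays.

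**Figure D3:**
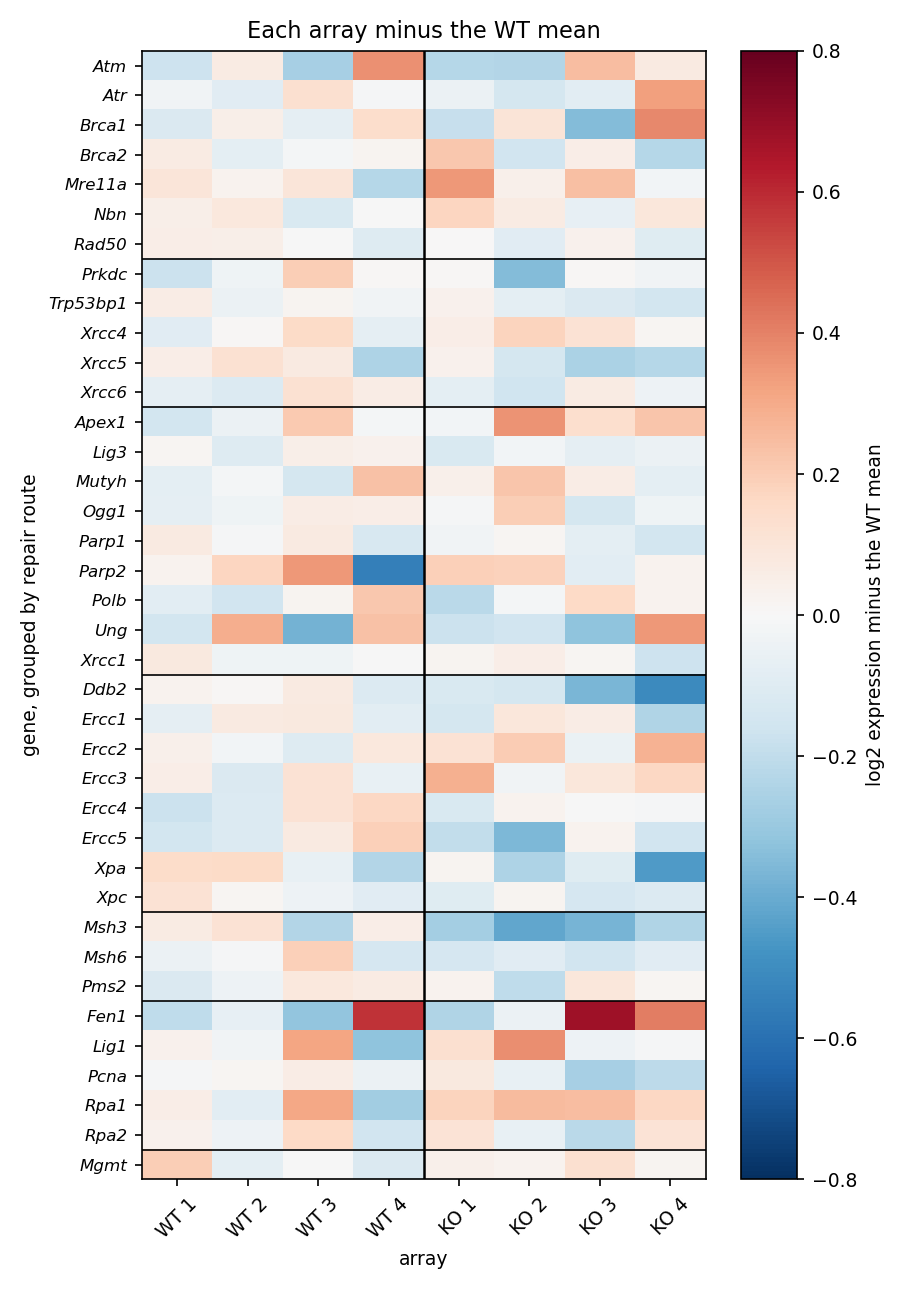
Log2 expression of 38 DNA repair genes (vertical axis, by route, divided by lines) on each of the 8 arrays (horizontal axis), as the value minus the WT mean of the gene. The row of Msh3 is negative on all 4 SIRT7 KO arrays, and that of Fen1 is positive on WT array 4 and on SIRT7 KO arrays 3 and 4.

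Several members were read by more than 1 probe set, which serves as a check of the measurement. For 16 members there were 26 further probe sets, of which 11 had the sign of the brightest, and in 6 of the 16 genes all probe sets had 1 sign. None of the 26 was called. Above the lower quartile of brightness the deviations of a further probe set from its group means had a median Pearson r of 0.55 with those of the brightest (16 pairs, 8 arrays each), as in Rpa1 (0.95) and Polb (0.92), and below it the median r was 0.066 (10 pairs). The probe sets of a gene share the same arrays and RNA, so these values describe only how far their readings moved together. Whether they track the same transcript was not tested. Ddb2 (-0.049), Trp53bp1 (-0.075) and Fen1 (-0.62) were the genes above that quartile with an r below 0.

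Of 112 further repair genes on a list of the same routes, 81 were measured. The test called 3 of them (3.70%, against 4.65% of all genes), all 3 lower by the brightest probe set. Of the 56 further probe sets of these genes, 1 was called higher, for Parp3, a PARP enzyme of strand break repair (0.37 ± 0.10 SE, adjusted p = 0.146), and 1 lower, for the alkyladenine glycosylase gene Mpg (-0.33 ± 0.088 SE, adjusted p = 0.131). The brightest probe set of Parp3 gave 0.34 ± 0.12 (SE, adjusted p = 0.229), without overlap, and that of Mpg -0.087 ± 0.081 (SE), with overlap, and both genes are named here after their values were seen. Rnf8, the ubiquitin ligase that marks chromatin at double-strand breaks ahead of 53BP1, stood at 8.32, 8.43, 8.46 and 8.35 in WT and at 8.12, 8.12, 8.06 and 7.92 in SIRT7 KO livers. The groups were clearly apart, with a fall of 0.33 ± 0.071 (SE, adjusted p = 0.0745), and the call held in 5 of 8 fits without a single array. It was lost without WT array 1 (adjusted p = 0.157), WT array 2 (0.155) or SIRT7 KO array 4 (0.175). Rfc5, a subunit of the loader of the clamp PCNA, stood at 7.54, 7.54, 7.78 and 7.32 in WT and at 7.13, 7.24, 7.26 and 7.19 in SIRT7 KO livers (fall of 0.34 ± 0.095 SE, adjusted p = 0.138). Rev1, a translesion polymerase that inserts bases opposite lesions, stood at 7.47, 7.37, 7.12 and 7.70 in WT and at 7.05, 6.86, 6.69 and 7.03 in SIRT7 KO livers (fall of 0.51 ± 0.13 SE, adjusted p = 0.113). Both lay lower on all SIRT7 KO arrays, but each call held in only 1 of 8 fits without a single array, that without WT array 4 for Rfc5 and without WT array 3 for Rev1, and the adjusted p otherwise ran up to 0.276 for Rfc5 and 0.25 for Rev1. The call of Rfc5 was also lost with further quantile normalization (adjusted p = 0.155). The median over all 81 genes was -0.050.

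The sizes of the differences are set beside those of all genes as a description, without a test. A difference above 0.2 in size was found in 3 of 38 members (7.89%), in 14 of 81 further repair genes (17.3%) and in 21.6% of all genes. Among the genes above the median brightness, where most members lay, the share was 28.4%. The median size was 0.076 in the members and 0.096 over all genes. No member differed by more than 0.5, against 3.74% of all genes.

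**Figure D4:**
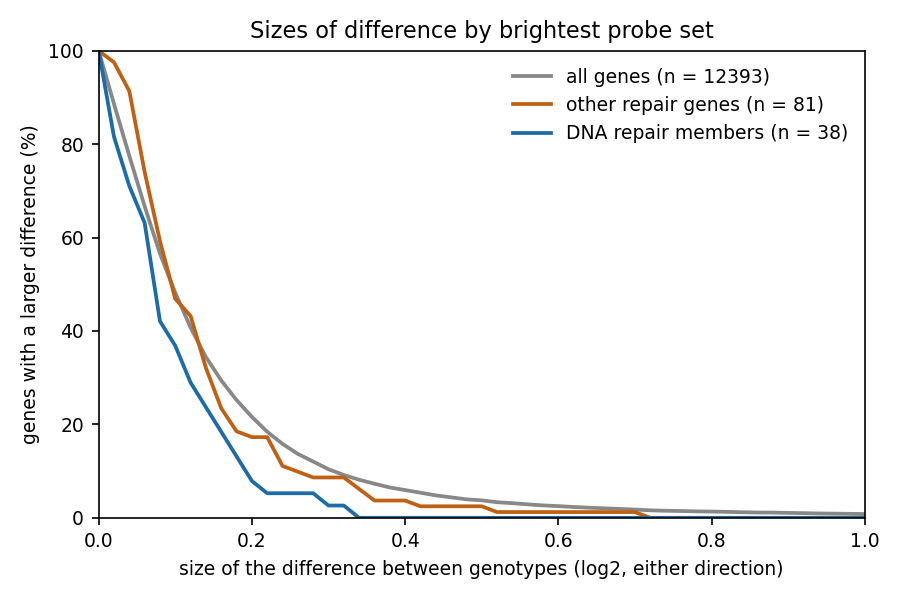
Share of genes (vertical axis, %) whose difference between the genotypes exceeds a given size (horizontal axis, log2, either direction), for 38 DNA repair members, 81 further repair genes and all 12393 genes, by brightest probe set. At a size of 0.2 the curves stand at 7.89%, 17.3% and 21.6%.

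Markers of other cells were read beside the list, because replication-linked repair genes are higher in dividing cells and immune cells bring transcripts of their own. Of 14 markers of proliferating cells, 0 rose and 1 fell, namely the thymidine kinase Tk1 (-0.66 ± 0.15 SE, adjusted p = 0.0841), while 12 had a positive sign with a median over the list of 0.20. Their mean level was between 5.37 and 6.15 in WT and between 5.601 and 6.17 in SIRT7 KO livers, and Mki67, which defines cycling cells, was between 4.78 and 6.45 and between 5.57 and 6.81. Of 9 macrophage markers none was called, although all 9 had a positive sign (median 0.22), and their mean level was between 8.63 and 9.59 in WT and between 8.82 and 9.65 in SIRT7 KO livers. Of 11 lymphocyte markers, 1 was called, namely Cd3g, which encodes a chain of the CD3 complex of T cells (-0.39 ± 0.11 SE, adjusted p = 0.137). It stood at 4.82, 4.93, 4.73 and 4.60 in WT and at 4.65, 4.23, 4.33 and 4.31 in SIRT7 KO livers. The groups thus overlapped, and some values lay below 4.56, the lower quartile of all probe set means. The CD3 chains Cd3d (-0.14) and Cd3e (-0.030) were not called. In this list 4 markers had a positive and 7 a negative sign (median -0.033). The mean level of the 11 was between 5.01 and 5.23 in WT and between 4.97 and 5.30 in SIRT7 KO livers. The share called was 7.14% of the proliferation, 0% of the macrophage and 9.09% of the lymphocyte markers, against 4.65% of all genes. The genotypes overlapped in the mean level of these 3 lists, and their part in the fall of Msh3 was not tested.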

How the data were processed

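Hepatic expression was measured in 4 WT and 4 SIRT7 KO samples on Affymetrix mouse expression arrays. The values deposited by the authors are on the log2 scale, after correction for background, normalization and summary to probe sets. RMA is named in the paper's methods but GCRMA in the submitters' processing notes, and the table does not tell which was used. The values were used as they stand, not centred per gene. Of 22690 probe sets, 64 Affymetrix controls were left out. Names came from GEO's platform annotation, which can be old.

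SIRT7 KO was compared with WT in limma (version 3.58.1, R 4.3.3) by lmFit and eBayes, genotype alone, two-sided, with Benjamini-Hochberg adjustment over 22626 probe sets and a threshold of 0.15. The fit was tested on simulated data. The number of arrays limits precision. The members, routes, other lists and alternatives were chosen with earlier results of these data known. Values for every array were given for members called, not overlapping, the 3 highest and 3 lowest, and Trp53bp1, Parp1, Xrcc5, Xrcc6 and Prkdc. Among further repair genes, those called were named.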

Additional observations from a re-analysis of the deposited data

Results flagged for a closer look

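In 3 members a single SIRT7 KO array stood far from the other 3, by a gap over the range of the group above the 95% critical value of Dixon's test for 4 samples. Prkdc was 6.03 on SIRT7 KO array 2 and between 6.352 and 6.39 on the others, Xrcc1 was 7.19 on SIRT7 KO array 4 against 7.38 to 7.41, and Mgmt was 7.87 on SIRT7 KO array 3 against 7.77 to 7.78. Chance alone would mark about 1 in 20 groups, and 84 groups were examined. None of these genes was called.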

How the results depend on the processing

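The call of Msh3 was the only one among the members, and few alternatives kept it. The count of members called was 1 with eBayes with trend and robust variance, with array quality weights and without dim probe sets, all Msh3, and it was 0 at a threshold of 0.05, with further quantile normalization (adjusted p of Msh3 0.176), with array medians set to 0 (0.151), with an ordinary linear model without moderation (0.229), with the replicate block (0.195) and with the mean of a gene's probe sets (-0.16, 0.308). Without single arrays it ranged from 0 to 1. The count of further repair genes called, 3, was 0 at a threshold of 0.05, 1 with the ordinary linear model, 2 with quantile normalization, 4 with array weights and with the mean of a gene's probe sets, and between 0 and 3 without single arrays. Rfc5 was lost with quantile normalization (0.155), the ordinary linear model (0.234) and the replicate block (0.176), where Aptx took its place in the count, and Rev1 with the ordinary linear model (0.239). Outside the naming rule and seen afterwards, Aptx was called lower with array weights and with the replicate block, Mpg with the mean of a gene's probe sets, and Rev3l without WT array 3. The mean of a gene's probe sets also turned the sign of Trp53bp1 (0.058) and Parp1 (0.0081). The median difference of the members stayed between -0.044 and -0.0040 under each alternative, and Sirt7 passed under each. Deviations of same-numbered arrays from their group means correlated with r from -0.25 to 0.26, and WT array 1 correlated best with SIRT7 KO array 2 (0.31). With so few arrays, these values cannot decide whether the replicate numbers pair the arrays. The replicate block lowered the count of all genes called from 576 to 368, an ordinary linear model to 189 and the threshold of 0.05 to 94, and without single arrays it was 132 (WT array 1), 300 (WT array 2), 331 (SIRT7 KO array 1), 276 (SIRT7 KO array 2), 351 (SIRT7 KO array 3) and 157 (SIRT7 KO array 4), against 426 and 525 without WT arrays 3 and 4. Array number limits small differences.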
